A study of Mus musculus with 2 samples.

Results

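The subunits of respiratory complexes II to V, with cytochrome c, were examined in CD8+ T cells from mouse tumors. Members were taken by gene symbol from the list of measured genes, and pseudogenes were left out. The rule gave 54 of 32285 genes, of which 48 lie in the nuclear genome and 6 in the mitochondrial genome. No measured value entered the choice. Complex II held 4 members, complex III held 10, complex IV held 20 and complex V held 19, and Cycs was the only gene for cytochrome c. A mean over both libraries of at least 10 CPM (counts per 1000000 UMIs) was reached by 48 of the 54 members, 42 of them nuclear, and by 6899 of all genes.

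CD8+ tumor-infiltrating lymphocytes (TIL) came from transplanted B16 F0 melanomas in male C57Bl/6J mice at 16 weeks of age. The Lean library came from mice on normal chow and the Obese library from mice on a western diet, a feed rich in fat and sugar, and neither carried a genetic change or other treatment. Cells were bound to CD8 beads, sorted on CD8 and captured in droplets for 3′ single-cell RNA sequencing, with 1 library a group. How many mice gave each library is not stated in the labels.

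The respiratory chain of the inner mitochondrial membrane passes electrons from NADH and succinate to oxygen and pumps protons, and ATP synthase uses the proton gradient to make ATP. Complex II is also an enzyme of the citric acid cycle, and it is the complex whose subunits are all encoded in the nucleus. Complexes III, IV and V are built from subunits of both genomes, so a cell has to make RNA in the nucleus and in the mitochondrion for each of them. Naive T cells are small and rest on a modest oxidative metabolism, whereas activated and dividing T cells build up mitochondrial mass alongside glycolysis.

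The counts are of unique molecular identifiers (UMIs), each marking 1 captured RNA molecule at its 3′ end, so CPM values carry no direct factor of gene length. They can be set side by side between genes that have a transcript of their own. That does not hold for mt-Atp8 and mt-Atp6, which share 1 transcript. After cells with mitochondrial RNA at or over 7.5% of UMIs, or with 50000 UMIs or more, were left out, 2456 Lean and 2289 Obese cells remained with 27815785 and 28705830 UMIs. The median cell held 7958 UMIs in the Lean and 9103 UMIs in the Obese library, and 2 barcodes of kept cells occurred in both libraries, of 4 among all deposited cells. Clusters were built with all members left out of the variable genes. Cluster 1 (479 Lean and 577 Obese cells) was proliferating-like by Pclaf, Birc5, Stmn1 and Cks1b. Cluster 2 (572 and 419 cells) was naive- or memory-like by Lef1, Tcf7 and Ccr7. Cluster 3 (624 and 303 cells) was effector-like by Gzmd, Gzmf, Gzme and Gzmc. Cluster 0 (497 and 781 cells) was called interferon-stimulated-like by Ifit3, Ifit1, Ifit3b and Isg15, but Gzma was its first leading gene and Ccl5 was another. Cytotoxic memory-like markers, which include Gzma and Ccl5, summed to 16138 CPM in its Lean and 15903 CPM in its Obese cells. Interferon-stimulated-like markers summed to 970 and 757 CPM there. Both lists were higher in cluster 0 than in any other cluster. Cluster 5 was dendritic-like, with 10 Lean and 21 Obese cells. Cluster 4 (274 and 188 cells) stayed unnamed, with a median of 2492.5 and 3048.5 UMIs a cell and with hemoglobin genes, Gm26917 and Gm42418 among its leading genes. The CD8 T cell markers summed to 5722 and 5009 CPM over all cells, against 16.0 and 13.2 CPM for myeloid, 3.27 and 4.22 CPM for B cell and 0.683 and 1.01 CPM for melanoma markers. Dendritic-like markers were at 502 and 510.0 CPM. In clusters 0 to 3 this list was at 280 to 531 CPM in the Lean and 211 to 454 CPM in the Obese library. In cluster 5 it was at 7224 and 15105 CPM, so the sums over all cells do not measure dendritic-like cells alone. Red cell markers were at 0 CPM in the Lean and 320.2 CPM in the Obese library, nearly all of the latter in cluster 4. With 1 library a group no test was possible, and every 95% interval given covers counting error only, not differences between mice.

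The promoter windows of 5 members are shown first, chosen for the reasons given next. Among the kept members, Cox5a and Cycs had the highest mean ratios over both libraries of the proliferating-like over the naive- or memory-like cluster, Cox7a2l had the lowest and also the highest nuclear ratio of Obese over Lean, Atp5g3 is the member of the c-ring family with the highest state ratio, and Sdha is the catalytic flavoprotein of complex II. Each window runs 5′ to 3′ on the strand of its gene from 250 bases before to 50 after the start given by RefSeq on GRCm38.p6. Capitals mark the letters of the nuclear respiratory factor 1 (NRF1) motif, GCGCA followed by any base and GCGC, searched on both strands. The windows are Cox5a at chr9:57520982-57521281 (+), Cycs at chr6:50566520-50566819 (−), Cox7a2l at chr17:83514284-83514583 (−), Atp5g3 at chr2:73911277-73911576 (−) and Sdha at chr13:74350191-74350490 (−).
Cox5a: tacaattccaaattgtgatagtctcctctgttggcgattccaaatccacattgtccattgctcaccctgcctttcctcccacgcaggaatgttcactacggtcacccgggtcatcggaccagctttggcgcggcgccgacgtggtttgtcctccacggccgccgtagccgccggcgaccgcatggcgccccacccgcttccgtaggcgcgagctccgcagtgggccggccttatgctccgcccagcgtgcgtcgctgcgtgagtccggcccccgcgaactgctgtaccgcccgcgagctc
Cycs: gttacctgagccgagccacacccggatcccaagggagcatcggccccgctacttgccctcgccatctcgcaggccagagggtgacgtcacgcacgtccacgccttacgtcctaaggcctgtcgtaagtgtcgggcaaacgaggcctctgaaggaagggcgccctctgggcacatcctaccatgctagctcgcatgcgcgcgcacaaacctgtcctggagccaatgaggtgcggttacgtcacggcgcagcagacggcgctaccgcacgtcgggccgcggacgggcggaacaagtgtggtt
Cox7a2l: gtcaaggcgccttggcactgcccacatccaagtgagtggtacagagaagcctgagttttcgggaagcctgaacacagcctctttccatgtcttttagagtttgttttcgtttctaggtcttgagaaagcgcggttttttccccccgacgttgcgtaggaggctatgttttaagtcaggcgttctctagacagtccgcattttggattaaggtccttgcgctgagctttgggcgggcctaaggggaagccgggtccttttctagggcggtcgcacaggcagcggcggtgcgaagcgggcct
Atp5g3: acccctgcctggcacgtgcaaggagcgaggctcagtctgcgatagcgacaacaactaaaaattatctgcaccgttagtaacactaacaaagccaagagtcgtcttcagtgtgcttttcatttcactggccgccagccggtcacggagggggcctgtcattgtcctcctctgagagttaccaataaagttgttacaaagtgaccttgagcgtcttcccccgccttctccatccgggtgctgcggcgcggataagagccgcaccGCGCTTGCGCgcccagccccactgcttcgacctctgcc
Sdha: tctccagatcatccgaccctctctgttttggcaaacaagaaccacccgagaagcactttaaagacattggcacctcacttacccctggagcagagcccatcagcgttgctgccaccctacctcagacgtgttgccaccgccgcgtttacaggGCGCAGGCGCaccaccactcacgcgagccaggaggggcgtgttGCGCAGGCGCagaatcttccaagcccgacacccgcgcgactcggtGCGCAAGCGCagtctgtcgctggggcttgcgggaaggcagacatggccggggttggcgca

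Of the 48 nuclear members, 36 matched the promoter table, with 39 windows. The NRF1 letters stood in 25.6% of the member windows and in 4.60% of all 32851 windows. The letters CCGGAAG, the core bound by ETS factors such as GABP, stood in 33.3% of the member windows against 8.86% of all. AAGATGGCG, the letters of the YY1 motif, stood in 5.13% against 1.40%. Sdha held 3 matches of the NRF1 letters, Atp5g3 held 1, and the windows of Cox5a, Cycs and Cox7a2l held no exact match of the 3 motifs. Only exact letters were counted, so a window without a match is not shown to lack a site. The Cycs window, for example, holds a run that differs from the NRF1 letters in 1 base. Among the kept members, the median log2 ratio of cluster 1 over cluster 2 was 0.87 for the 10 with NRF1 letters. It was 0.96 for the 13 with ETS letters and 1.03 for the 13 with neither. The NRF1 and ETS sets overlap, as 19 kept members held either, and matched members that were not kept are left out. The values ran from 0.41 to 1.20 for the NRF1 set and from −0.79 to 1.54 for the set with neither.

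Over all cells, the nuclear subunits took nearly the same share of the RNA in both libraries, while the mitochondrially encoded subunits took more of it in the Obese library. The 48 nuclear members summed to 19912 CPM (19860 to 19965) in the Lean library and to 19419 CPM (19368 to 19470) in the Obese library, a log2 ratio of −0.036 (−0.042 to −0.031). The 6 mitochondrial members summed to 16537 CPM (16489 to 16585) in the Lean library, and in the Obese library they reached 21650 CPM (21596 to 21704), with a log2 ratio of 0.39 (0.38 to 0.39). The nuclear ratio was small under each setting tried on all cells, from −0.081 with TMM scaling to −0.0014 over all deposited cells. The genomes that supply the same complexes thus had different ratios between these libraries. Mitochondrial genes in all took 2.07% of the Lean and 2.66% of the Obese UMIs. The cell filter uses that share. The log2 ratio of the mitochondrial members was 0.38 in stricter cells, under 5% mitochondrial UMIs and with a higher minimum of UMIs a cell. It was 0.39 over all deposited cells. The part of the cell filter in the mitochondrial values was not tested.

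**Figure D1:**
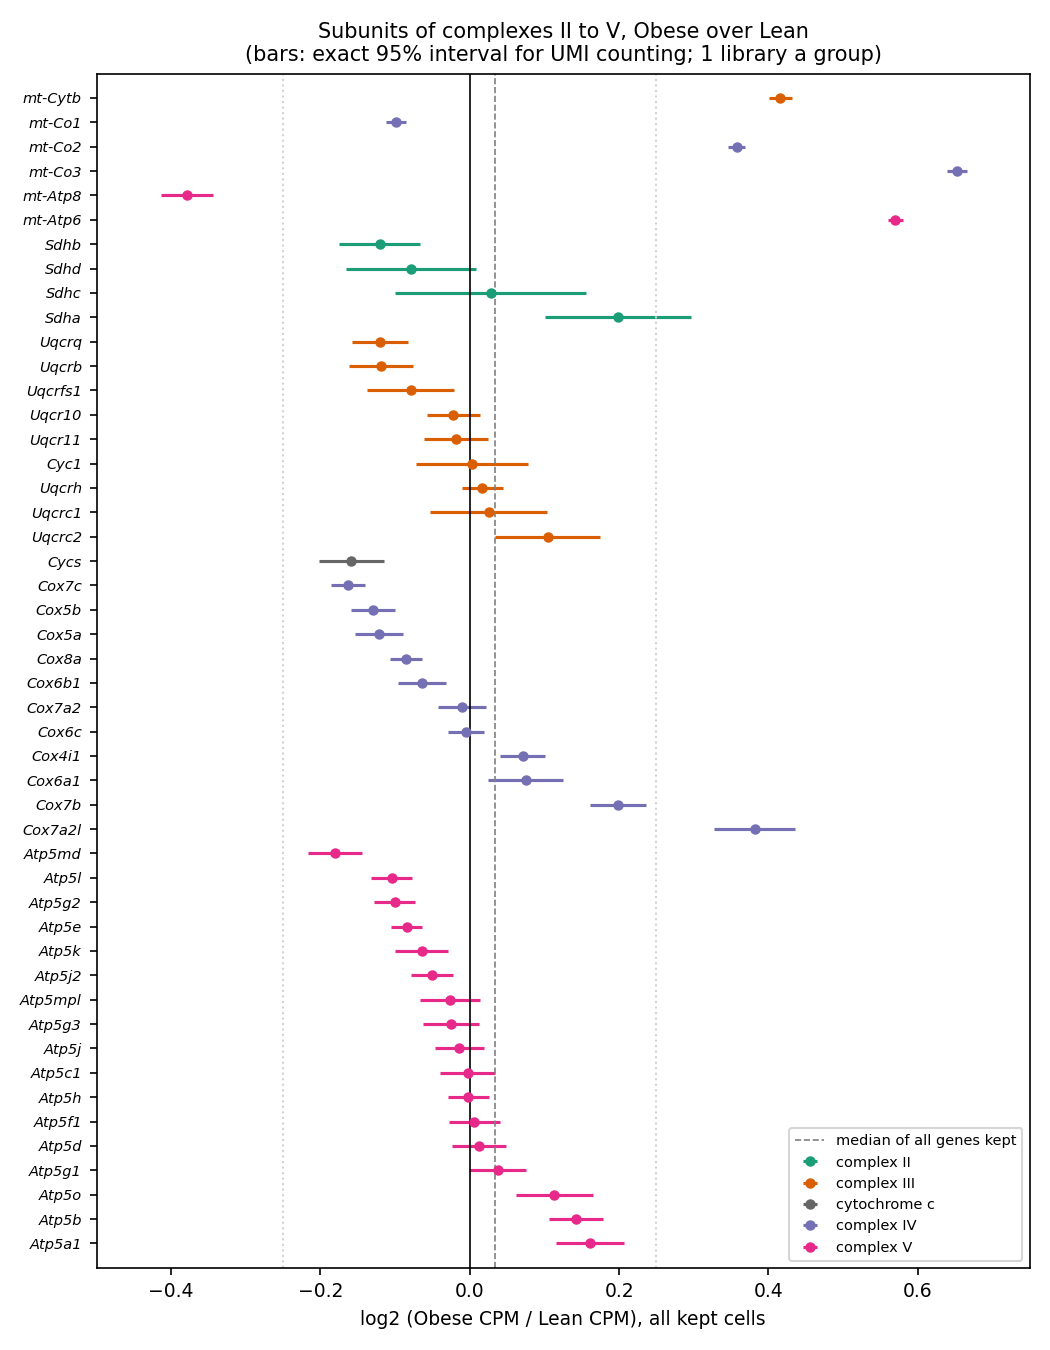
The log2 ratio of Obese over Lean CPM over all kept cells is plotted on the horizontal axis for each of the 48 kept members, coloured by complex, with exact 95% intervals for counting error, dotted lines at ±0.25 and a dashed line at the median of all genes kept (0.034). Of the nuclear members only Cox7a2l lies past a dotted line, whereas 4 of the 6 mitochondrial members lie above 0.25 and mt-Atp8 lies below −0.25.

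Past a log2 ratio of 0.25 stood 5 of the 48 kept members upwards, where 12.7% of all genes did, and 1 member downwards, where 6.09% of all genes did. The 4 mitochondrial members with the highest ratios were mt-Co3, mt-Atp6, mt-Cytb and mt-Co2, and the nuclear one was Cox7a2l. The median of the 42 nuclear members was −0.016, with 16 higher and 26 lower in the Obese library, beside a median of 0.034 over all genes. The single nuclear member past the limit is 1 of 42, a smaller share than that of all genes.

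Complex II, succinate dehydrogenase, summed to 376 CPM in the Lean and 364 CPM in the Obese library, the lowest level of the complexes (log2 ratio −0.046, −0.085 to −0.0063). Sdha, the flavoprotein that oxidizes succinate, was at 56.6 CPM (53.8 to 59.4) in the Lean and 64.9 CPM (62.0 to 67.9) in the Obese library, a log2 ratio of 0.20 (0.10 to 0.30). Sdhb, the iron-sulfur subunit and the most abundant of the complex, went from 206 CPM to 190 CPM with a ratio of −0.12 (−0.17 to −0.067). The partners of 1 enzyme thus had ratios on opposite sides of 0. The membrane anchors Sdhc, at 35.2 and 35.8 CPM, and Sdhd, at 77.7 and 73.6 CPM, had intervals that included 0.

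Complex III, the cytochrome bc1 complex, summed to 2742 and 2681 CPM over its 9 nuclear members (−0.032, −0.047 to −0.018). Uqcrh, a small hinge subunit, was the most abundant of them at 763 CPM in the Lean and 772 CPM in the Obese library, with a log2 ratio of 0.017 whose interval included 0. Cyc1, the cytochrome c1 that hands electrons to cytochrome c, was at 100.2 CPM and 100.4 CPM. Uqcrfs1, the Rieske iron-sulfur protein, was at 173 CPM and 163 CPM, with a ratio of −0.079 (−0.14 to −0.021). The mitochondrially encoded partner mt-Cytb, cytochrome b, was at 2025 CPM in the Lean and 2702 CPM in the Obese library, a ratio of 0.42 (0.40 to 0.43). Among the catalytic subunits of complex III, the mitochondrial one was higher in the Obese library while neither nuclear one was.

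Cytochrome c, the soluble carrier between complexes III and IV and a trigger of apoptosis once released, was at 318 CPM (311 to 325) in the Lean and 285 CPM (279 to 291) in the Obese library. Its gene Cycs (ENSMUSG00000063694) had a log2 ratio of −0.16 (−0.20 to −0.12), among the 5 lowest of the kept nuclear members.

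Complex IV, cytochrome c oxidase, summed to 7251 and 7062 CPM over 17 nuclear members, 11 of which were kept (−0.038, −0.047 to −0.029). Its most abundant nuclear member was Cox8a, a small membrane subunit, at 1267 CPM in the Lean and 1195 CPM in the Obese library. Cox7a2l (ENSMUSG00000024248, chromosome 17 from 83501918 to 83517330), also known as SCAF1, had the highest ratio of the kept nuclear members. It was at 172 CPM (167 to 177) in the Lean and 224 CPM (218 to 229) in the Obese library, a log2 ratio of 0.38 (0.33 to 0.44). Its paralog Cox7a2 was at 558 and 554 CPM. Cox7b followed with 388 and 445 CPM and a ratio of 0.20 (0.16 to 0.24). At the other end stood Cox7c, from 1218 to 1088 CPM (−0.16), Cox5b, from 657 to 600.4 CPM (−0.13), and Cox5a, from 574 to 528 CPM (−0.12), all small nuclear subunits around the catalytic core.

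The core of complex IV is made in the mitochondrion, and its 3 genes had ratios of different size and sign. mt-Co3 was at 2610 CPM (2591 to 2629) in the Lean and 4102 CPM (4078 to 4125) in the Obese library, a log2 ratio of 0.65 (0.64 to 0.67) and the highest of all members. mt-Co2, which receives electrons from cytochrome c, was at 3769 and 4828 CPM, a ratio of 0.36 (0.35 to 0.37). mt-Co1, the subunit that binds oxygen, was instead lower in the Obese library, at 3031 CPM (3011 to 3052) against 2830 CPM (2811 to 2850), a ratio of −0.099 (−0.11 to −0.085).

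Complex V, ATP synthase, summed to 9226 and 9027 CPM over 17 nuclear members, the highest nuclear level of the complexes (−0.031, −0.039 to −0.024). Atp5e, the epsilon subunit of the central stalk, was its most abundant nuclear member at 1389 and 1310 CPM. By part of the enzyme, the 5 genes of the catalytic F1 head and central stalk summed to 2913 and 2909 CPM (−0.0017, −0.016 to 0.012) and the 4 of the peripheral stalk to 1985 and 1997 CPM (0.0089, −0.0080 to 0.026). The 5 nuclear genes of the membrane part summed to 2780 CPM in the Lean and 2621 CPM in the Obese library, a ratio of −0.085 (−0.10 to −0.071), and all 5 were lower. The lowest ratio of the kept nuclear members was in this part, for Atp5md, a small membrane subunit, with 458 and 404 CPM and a ratio of −0.18 (−0.22 to −0.14). Atp5a1 and Atp5b, the alpha and beta subunits that form the catalytic head, were by contrast higher, at 259 against 289 CPM (0.16) and at 407 against 450 CPM (0.14).

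The 2 mitochondrial genes of complex V, which lie on 1 transcript, stood at opposite ends of the ratios. mt-Atp6 (ENSMUSG00000064357), the subunit that forms the proton channel with the c-ring, was at 4563 CPM (4538 to 4589) in the Lean and 6774 CPM (6744 to 6805) in the Obese library, a log2 ratio of 0.57 (0.56 to 0.58). mt-Atp8 (ENSMUSG00000064356), a small membrane subunit, had 538 CPM (530 to 547) in the Lean but 414 CPM (407 to 421) in the Obese library, and its ratio was −0.38 (−0.41 to −0.34). The reading frames overlap by 43 bases at chrM:7927-7969 (+), shown here from the GRCm38 genome with the start codon of mt-Atp6 and the stop codon of mt-Atp8 in capitals.
mt-Atp8 and mt-Atp6 overlap: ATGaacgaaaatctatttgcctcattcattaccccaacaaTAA
Because the pair shares 1 transcript, with mt-Atp6 on its downstream side, the counts of the pair do not separate 2 RNA species. Their opposite ratios are therefore not levels of 2 RNAs, and how reads came to be assigned to mt-Atp8 was not tested. Of the mitochondrial members, mt-Co1, mt-Co2, mt-Atp6 and mt-Co3 also have near copies in the nuclear annotation, none of which is in the count table.

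Between cell states, the nuclear subunits took the largest shares of all UMIs in the proliferating-like cluster 1 and the effector-like cluster 3, in both libraries. Among the named clusters their share was lowest in the naive- or memory-like cluster 2, also in both. That lowest place depends on the total used. With mitochondrial and ribosomal protein genes left out of the total, cluster 0 was below cluster 2 in both libraries. Cluster 1 held 23411 CPM of nuclear members in the Lean and 23025 CPM in the Obese library, cluster 3 held 21067 and 20646 CPM, cluster 0 held 16026 and 15159 CPM, and cluster 2 held 13674 and 12555 CPM. The mitochondrial members had nearly the reverse order, with 21075 and 26172 CPM in cluster 2 against 14540 and 19757 CPM in cluster 1. The ratio of nuclear to mitochondrial member UMIs was 1.61 in the Lean and 1.17 in the Obese library in cluster 1, against 0.65 and 0.48 in cluster 2. Per cell, cluster 1 held a mean of 560 nuclear member UMIs in the Lean and 561 in the Obese library, and cluster 2 held 108 and 105, at median depths of 22242 and 22863 against 7478.5 and 7908 UMIs.

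**Figure D2:**
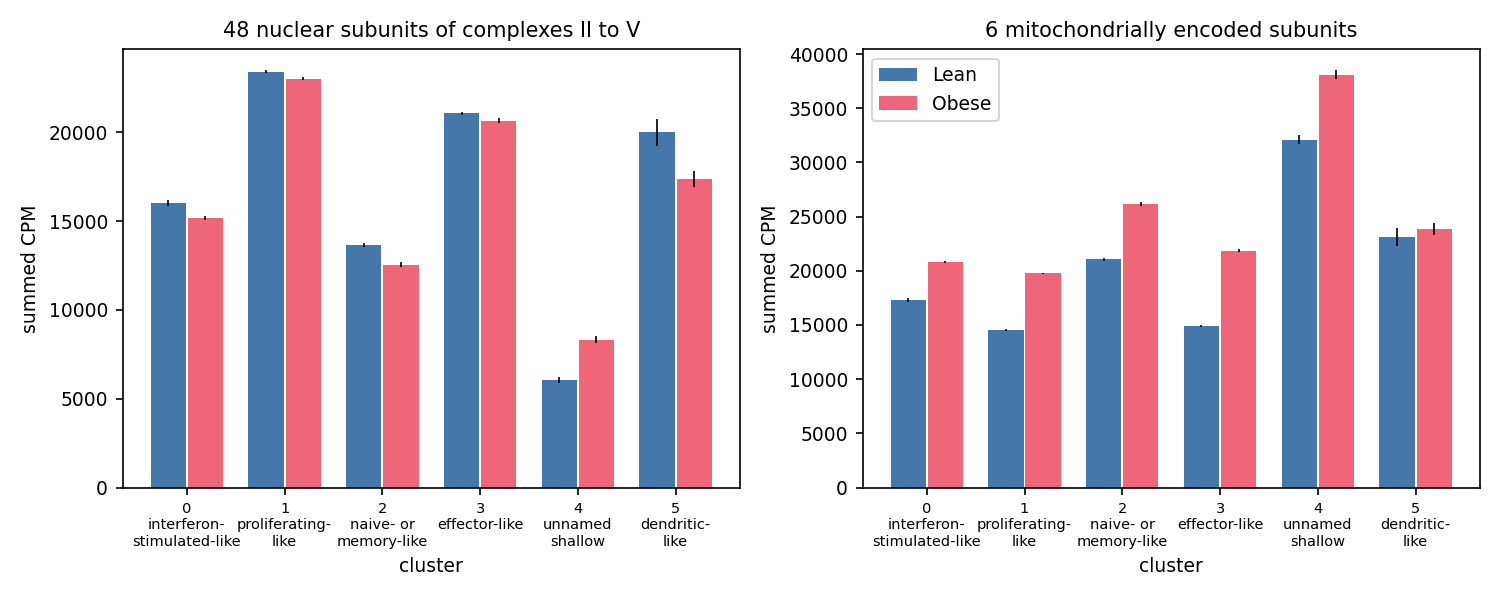
Bars give the summed CPM of the 48 nuclear members (left) and the 6 mitochondrial members (right) for each cluster on the horizontal axis, in the Lean (blue) and the Obese (red) library, with exact 95% Poisson intervals. Nuclear members are highest in clusters 1 and 3 and lowest in clusters 2 and 4, and mitochondrial members are higher in the Obese than in the Lean library in clusters 0 to 4.

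Of the 42 kept nuclear members, 34 were at least 0.5 higher on the log2 scale in cluster 1 than in cluster 2 in both libraries, where 42.0% of all genes were, and Cox7a2l was the only nuclear member as much lower, where 10.9% of all genes were. The summed log2 ratio was 0.78 (0.76 to 0.79) in the Lean and 0.88 (0.86 to 0.89) in the Obese library. All genes together also shifted between these clusters, with medians of 0.44 and 0.47. Cytosolic ribosomal protein genes took 44.9% and 44.8% of the UMIs of cluster 2 against 29.0% and 29.2% in cluster 1. Relative to that shift the median nuclear member was 0.38 higher in the Lean and 0.54 higher in the Obese library. With mitochondrial and ribosomal protein genes left out of the total, 18 of the 48 kept members of both genomes stood past the limit upwards, against 23.5% of all genes, and 7 downwards, against 21.3%, and the summed ratios were 0.38 and 0.48.

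The ratios differed over the complexes. Cycs was at 165 CPM in cluster 2 and 470.4 CPM in cluster 1 of the Lean library, and at 136 and 398 CPM in the Obese library (log2 ratios 1.51 and 1.55). Complex II had summed ratios of 0.96 and 1.15, complex IV of 0.92 and 0.96, complex V of 0.69 and 0.83, and complex III of 0.60 and 0.70. The nuclear subunits of complex I, the NADH dehydrogenase, had 0.70 and 0.84 for comparison, and the glycolysis genes had 2.04 and 1.93. Glycolysis genes thus differed far more between these clusters than any of the complexes.

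Cox5a (ENSMUSG00000000088, chromosome 9 from 57521274 to 57532426), a subunit on the matrix side of complex IV, had the highest mean ratio over both libraries of the kept members. It was at 270 CPM in cluster 2 and 754 CPM in cluster 1 of the Lean library, and at 233 and 701 CPM in the Obese library, with log2 ratios of 1.48 (1.40 to 1.57) and 1.59 (1.49 to 1.69). By that mean Sdhb followed Cycs, with 111 against 254 CPM in the Lean and 81.3 against 239 CPM in the Obese library (1.20 and 1.56). The peripheral stalk genes Atp5j and Atp5f1, which hold the F1 head still against the turning rotor, came next with 1.22 and 1.37 for Atp5j and 1.14 and 1.32 for Atp5f1. Among the catalytic nuclear subunits, Cyc1 had 0.77 and 1.18, Uqcrfs1 had 0.55 and 0.58, and Sdha had 0.40 and 0.65. Sdha therefore stood near the all-gene median while its partner Sdhb stood far above it.

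At the lower end, Cox7a2l was at 221 CPM in cluster 2 and 129 CPM in cluster 1 of the Lean library, and at 313 and 180 CPM in the Obese library. Its log2 ratios of −0.78 (−0.90 to −0.66) and −0.80 (−0.90 to −0.69) were opposite in sign to those of the other kept nuclear complex IV subunits. Uqcrh, at 720 against 703 CPM and 764 against 734 CPM, and Atp5mpl, a small ATP synthase subunit at 375 against 370.2 CPM and 361 against 368 CPM, were near level between the clusters. Atp5g2 (0.40 and 0.42) and Atp5h (0.33 and 0.52) came next, near the shift of all genes. Without mitochondrial and ribosomal protein genes in the total Cox7a2l kept its direction, at −1.18 and −1.19.

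**Figure D3:**
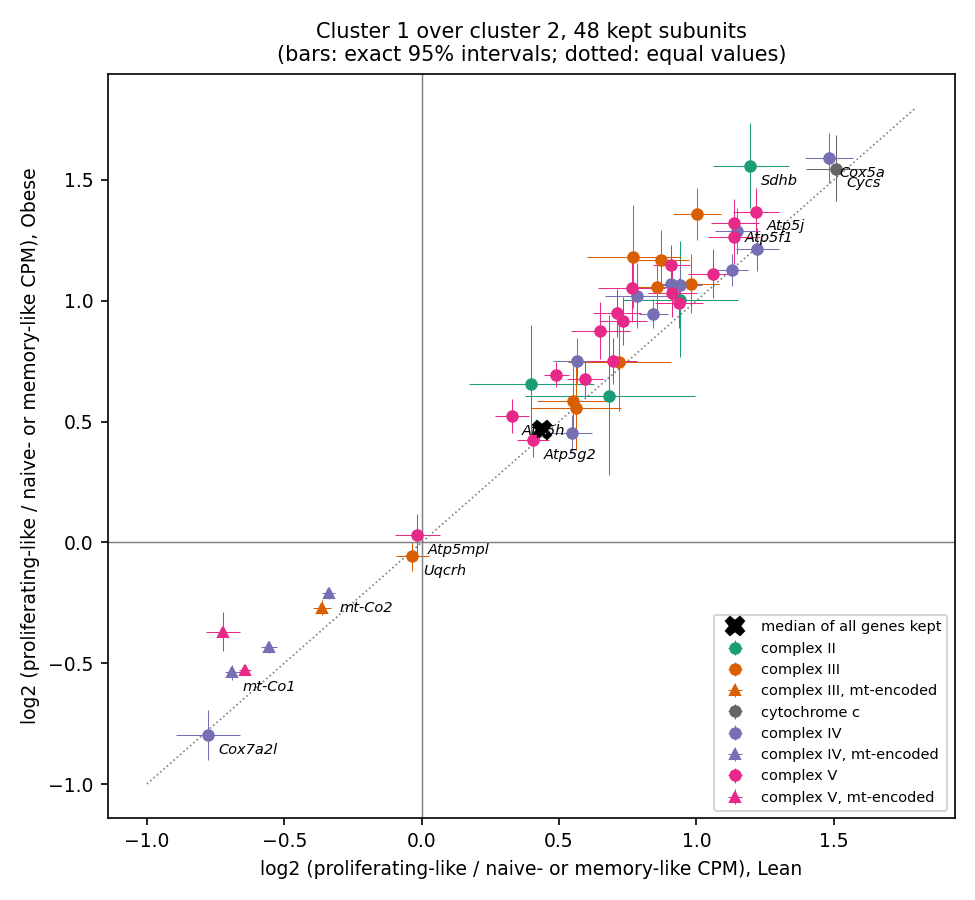
Each of the 48 kept members is placed by its log2 ratio of cluster 1 (proliferating-like) over cluster 2 (naive- or memory-like) in the Lean (horizontal) and the Obese library (vertical), with exact 95% intervals, triangles for mitochondrial members and a cross for the median of all genes kept (0.44 and 0.47). Most nuclear members lie above the cross, while Cox7a2l and the 6 mitochondrial members lie below 0 in both libraries.

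The mitochondrial members were lower in cluster 1 than in cluster 2, with summed log2 ratios of −0.54 in the Lean and −0.41 in the Obese library. Their mean ratios over both libraries ran from −0.61 for mt-Co1 to −0.27 for mt-Co2. mt-Atp6 was at 6202 and 3974 CPM in the Lean and at 8776 and 6093 CPM in the Obese library. These values are shares of all UMIs, and per cell cluster 1 held more mitochondrial member UMIs, 348 and 482 against 166 and 220.

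The effector-like cluster 3 was compared with the same cluster 2, so its values share that reference with those of cluster 1. Its nuclear members had summed log2 ratios of 0.62 (0.61 to 0.64) in the Lean and 0.72 (0.70 to 0.73) in the Obese library, and 26 of 42 stood past 0.5 in both, where 33.3% of all genes did. Of all 48 members, 0 stood past −0.5, where 7.01% of all genes did. The 21 members with at most 394.5 coding bases had a median of 0.82 by the mean of both libraries, beside 0.59 for 457 coding genes that short. By the mean of both libraries Cox5a was again the highest kept member, at 1.18 and 1.16, followed by Sdhb, at 0.95 and 1.22. Cycs, second by that mean in the proliferating-like cluster, had 0.64 and 0.80 here, at 257 and 237 CPM. Cox7a2l was again below 0, at −0.22 and −0.38. Without mitochondrial and ribosomal protein genes in the total, 6 of the 48 kept members stood past the limit upwards, against 16.6% of all genes, and 5 downwards, against 16.4%, so the upward share of the members was then below that of all genes.

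In the interferon-stimulated-like cluster 0 the nuclear members were closer to those of cluster 2, and their direction depends on the total used. The summed log2 ratio over cluster 2 was 0.23 in the Lean and 0.27 in the Obese library, but −0.13 and −0.081 with mitochondrial and ribosomal protein genes left out of the total. Sdhb was the only kept member past 0.5 in both libraries, where 23.9% of all genes did, and mt-Cytb stood past −0.5, where 2.64% did. The median nuclear member was 0.14 below the median of all genes in the Lean and 0.070 below it in the Obese library.

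As shares of UMIs, the shallow cluster 4 had the lowest level of nuclear subunits and the highest of mitochondrial ones. Per cell it held a mean of 97.2 mitochondrial member UMIs in the Lean and 166.9 in the Obese library, fewer than cluster 2 with 165.8 and 219.8. Nuclear members summed to 6046 CPM in the Lean and 8334 CPM in the Obese library, and mitochondrial members to 32107 and 38096 CPM, a nuclear to mitochondrial ratio of 0.19 and 0.22. Against cluster 2, 22 of 42 nuclear members stood past −0.5 in both libraries, where 11.1% of all genes did, and 0 past 0.5, where 54.8% did. In the dendritic-like cluster 5, 11 nuclear members stood past 0.5, where 28.9% of all genes did, and 0 past −0.5, where 7.21% did. Within cluster 4, Uqcrb, a small complex III subunit, had the lowest mean of both libraries, with −2.90 and −1.55, followed by Atp5g2 with −2.35 and −1.58. Atp5a1 was instead higher, with 0.38 and 0.84. Ribosomal protein genes took 11.99% and 14.7% of the UMIs in this cluster and mitochondrial genes 4.05% and 4.77%, and the part of RNA quality in these values was not tested.

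Within the clusters, the mitochondrial members were higher in the Obese library in clusters 0 to 4, by summed log2 ratios of 0.27, 0.44, 0.31, 0.55 and 0.25 in that order. In the 31 cells of cluster 5 the ratio was 0.047 (−0.014 to 0.11). The nuclear members were slightly lower in the Obese library in clusters 0 to 3, with −0.080, −0.024, −0.12 and −0.029, and in cluster 5 with −0.20. Cluster 4 differed, with a nuclear ratio of 0.46 (0.41 to 0.52) and 33 of 42 nuclear members past 0.25, where 30.5% of all genes stood there. Other lists were also higher in the Obese library in cluster 4. Nuclear complex I subunits had 0.35 with 24 of 38 past 0.25, and ribosomal protein genes had 0.29 with 56 of 87. Red cell markers in this cluster were at 0 CPM in the Lean and 11120 CPM in the Obese library, and their part in these ratios was not tested. Of all 48 kept members, 36 stood past 0.25 and 3 past −0.25 in cluster 4, beside 28.8% of all genes for the latter. In cluster 0, 5 members were past 0.25 and 3 past −0.25, beside 19.9% and 14.6% of all genes. Cluster 1 had 6 and 1, beside 13.8% and 8.09%, and cluster 3 had 5 and 0, beside 20.9% and 14.0%. In cluster 2 there were 5 and 8, beside 19.3% and 18.6%. The few cells of cluster 5 gave 6 and 15, beside 35.0% and 43.7%. Of the members past 0.25 in clusters 0 to 3, the mitochondrial genome gave 3 of 5, 4 of 6, 4 of 5 and 4 of 5 in that order. The share of cells in each cluster differed between the libraries, 20.2% and 34.1% in cluster 0 and 25.4% and 13.2% in cluster 3. Giving clusters 0 to 3 equal weight, a setting chosen after the values were seen, left a ratio of −0.055 for the nuclear and 0.39 for the mitochondrial members.

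By gene, Cox7a2l was higher in the Obese library in clusters 0 to 3, with CPM of 215 and 270 in cluster 0, 129 and 180 in cluster 1, 221 and 313 in cluster 2 and 189 and 242 in cluster 3. Its log2 ratios there were 0.32, 0.49, 0.51 and 0.35, each with an interval above 0, and in cluster 4 it was level at −0.039 (−0.38 to 0.30). mt-Co3 had ratios from 0.35 in cluster 5 to 0.83 in cluster 3, where it was at 2386 and 4235 CPM. mt-Atp8 was lower in the Obese library in all 6 clusters, from −0.16 in cluster 3 to −0.88 in cluster 5, while mt-Atp6 was higher in all 6. mt-Co1 had −0.20 in cluster 0 and −0.18 in cluster 2 but 0.082 in cluster 3, so its sign differed between cell states. The order of the mitochondrial genes was nearly the same in each cluster, with mt-Co3 and mt-Atp6 at the top and mt-Co1 and mt-Atp8 at the bottom.

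**Figure D4:**
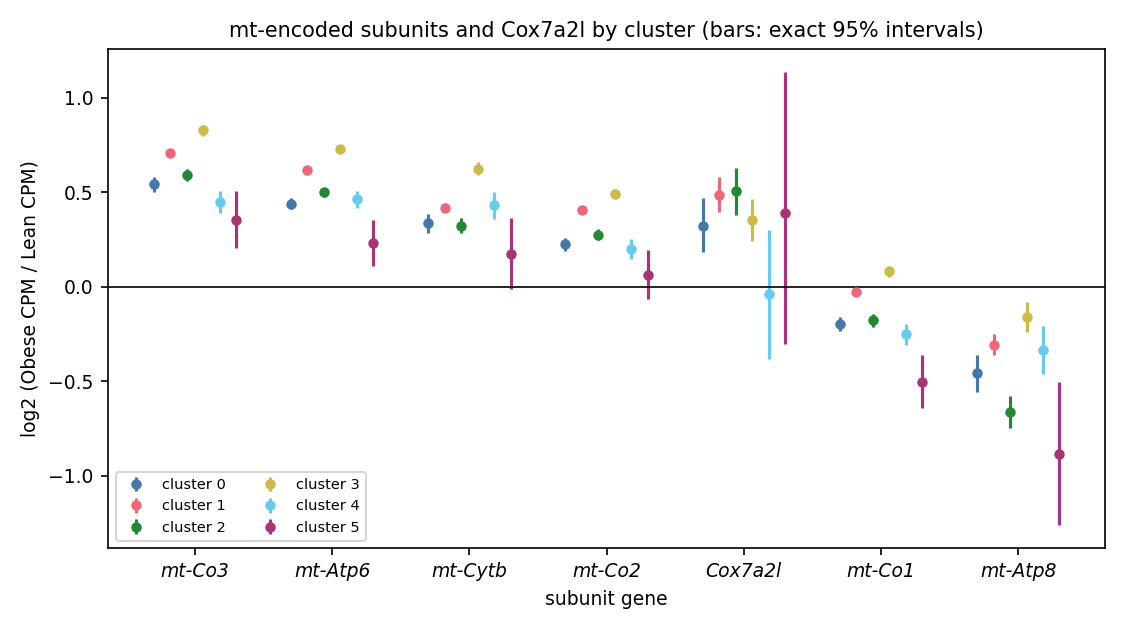
For each mitochondrially encoded member and Cox7a2l (horizontal axis), points give the log2 ratio of Obese over Lean CPM in each of the 6 clusters, with exact 95% intervals. mt-Co3, mt-Atp6, mt-Cytb and mt-Co2 lie above 0 in all clusters, mt-Atp8 lies below 0 in all, and Cox7a2l lies above 0 in all but cluster 4.

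Several subunits are encoded by more than 1 gene, and the balance within these families differed with cell state. The c-ring, the rotor of ATP synthase, is encoded by Atp5g1, Atp5g2 and Atp5g3, whose mature proteins are identical. Atp5g2 gave 55.6% (54.3% to 57.0%) of the family's UMIs in cluster 2 of the Lean and 56.4% (54.9% to 58.0%) of the Obese library, and 46.7% (46.0% to 47.3%) and 45.1% (44.5% to 45.7%) in cluster 1. Atp5g3 went the other way, with 19.6% and 19.3% in cluster 2 against 27.3% and 27.7% in cluster 1. Atp5g1 gave 24.7% and 24.2% in cluster 2 and 26.0% and 27.3% in cluster 1. The c-ring RNA of the proliferating-like cluster thus held a larger share of Atp5g3 and a smaller share of Atp5g2, in both libraries alike. Which gene supplied the protein was not measured. Atp5g2 also has 2 near copies in the annotation, none of which is in the count table.

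In the Cox7a family, Cox7a2l gave 40.3% (38.4% to 42.3%) of the UMIs in cluster 2 of the Lean and 52.2% (50.05% to 54.3%) of the Obese library, against 15.1% (14.4% to 15.8%) and 20.4% (19.7% to 21.1%) in cluster 1. Cox7a2 gave nearly all the rest. By UMIs, Cox7a2l therefore outnumbered Cox7a2 in cluster 2 of the Obese library, at 1103 against 1009. In the Lean library it did not, at 994 against 1467 UMIs. These are RNA counts and do not show which protein was built into complex IV. The muscle form Cox7a1 gave 0.39% and 0.32% over all cells.

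Muscle- and testis-type forms of complex IV subunits were rare or not seen. Cox7b2, Cox8b and Cox8c had 0 UMIs in both libraries, which allows a level of up to 0.108 CPM in the Lean and 0.105 CPM in the Obese library, and Cox7b and Cox8a gave all UMIs of their families. Cox7a1 had 79 and 71 UMIs and the testis form Cox6b2 51 and 80, most of them in clusters 1 and 3. Cox7a1 was seen in 7.52% (5.32% to 10.3%) of the Lean and 6.93% (4.998% to 9.32%) of the Obese cells of cluster 1, against 0.524% and 0.239% of the cells of cluster 2, which were shallower. Cox6b1 gave 99.7% and 99.5% of the Cox6b family.

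Cox6a2 (ENSMUSG00000030785, chromosome 7 from 128205435 to 128206387), the heart and muscle form of the subunit whose common form is Cox6a1, was nearly confined to the dendritic-like cells among the clusters compared. It had 180 UMIs in the Lean and 141 in the Obese library, and 97.2% and 95.04% of them lay in the 10 and 21 cells of cluster 5. A UMI was seen in 7 of the 10 Lean cells (70.0%, 34.8% to 93.3%) and in 9 of the 21 Obese cells (42.9%, 21.8% to 65.98%), at median depths of 9922.5 and 12468 UMIs. In the proliferating-like cells, at median depths of 22242 and 22863 UMIs, it was seen in 0.418% and 0.173% of cells. The gene was left out when clusters were built.

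The ratios of the nuclear members also went with the length of their coding sequence, as described by rank correlations over genes that share the same libraries. For Obese over Lean, Spearman's rho was 0.49 over the 42 kept nuclear members and 0.20 over 6755 coding genes. Coding length gave the highest value of the lengths tried. Transcript length gave 0.33 over the members and 0.17 over all coding genes, and gene span gave 0.36 and 0.090. Of the 21 members with at most 394.5 coding bases, 3 were higher and 18 lower in the Obese library (median −0.064), and of the 21 longer ones, 13 were higher and 8 lower (0.012). The short ones are mostly supernumerary subunits of complexes III, IV and V, and the long ones include the catalytic and core subunits. Of the catalytic and core subunits, Sdha, Atp5a1, Atp5b and Uqcrc2 were higher and Sdhb and Uqcrfs1 lower in the Obese library. Cyc1 and Uqcrc1 had intervals that included 0. All 461 coding genes of such short length had a median of −0.039. Role and length cannot be told apart among these members.

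For cluster 4 over cluster 2 the rank correlation with coding length was 0.50 over the members and 0.57 over all coding genes. With transcript length it was 0.36 and 0.51, and with gene span 0.080 and 0.37. All 21 short members were lower in cluster 4, with a median of −1.11, while 10 of the 21 long ones were higher and 11 lower, with a median of −0.37. For cluster 1 over cluster 2 the correlation over the members was −0.17 with coding length, −0.10 with transcript length and −0.25 with gene span. Over 6717 coding genes the values were −0.22, −0.21 and −0.16 in that order.

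**Figure D5:**
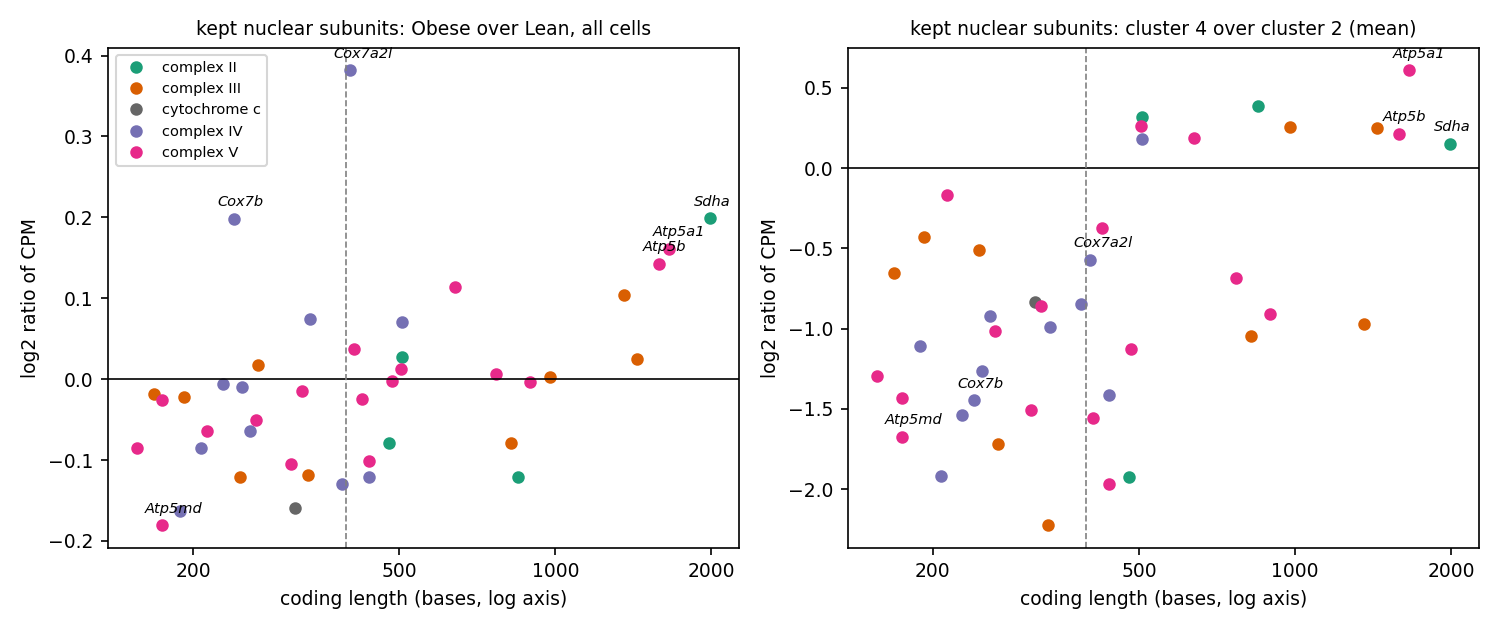
The log2 ratio of Obese over Lean (left) and of cluster 4 over cluster 2 as the mean of both libraries (right) is plotted against coding length on a log axis for the 42 kept nuclear members, coloured by complex, with a dashed line at 394.5 bases. To the left of that line 18 of 21 members lie below 0 in the left panel and all 21 in the right panel.

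Genes that build or regulate these complexes but are no subunits were set beside the members. Of 36 assembly factors 28 were kept, with a median log2 ratio of Obese over Lean of −0.084, 10 higher and 18 lower, and 3 past 0.25 and 1 past −0.25, beside 12.7% and 6.09% of all genes. The one past −0.25 was Cox17, the copper chaperone of complex IV, with 777 CPM in the Lean and 621 CPM in the Obese library and a ratio of −0.32 (−0.35 to −0.29). Cox17 also had a higher ratio of cluster 1 over cluster 2 than any kept subunit, 2.43 and 2.18. Of 14 regulators 9 were kept, with a median of 0.050, 6 higher and 3 lower. Tfb2m (0.40) and Tfam (0.25), both factors of mitochondrial transcription, stood past 0.25, where 12.7% of all genes did. The lower ones were Lrpprc (−0.13), Slirp (−0.098) and Gabpb1 (−0.085), of which only Slirp had an interval below 0. Nuclear complex I subunits summed to 8598 and 8406 CPM, a ratio of −0.033, close to the −0.036 of the complexes studied. The 14 kept glycolysis genes had a median of −0.29, with 9 of them past −0.25, where 6.09% of all genes were. In clusters 0 to 5 taken alone their median was 0.037, −0.28, −0.17, −0.31, −0.061 and −0.32, the last over 13 genes.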

How the data were processed

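Single-cell RNA of CD8+ TIL was measured in 1 Lean and 1 Obese library. The authors made the UMI count of each gene and cell with Cell Ranger 6.0.2 on mm10, per the labels, and deposited raw counts without normalization. Cells with under 7.5% mitochondrial UMIs, over 500 and under 50000 UMIs were kept. No doublet caller was run. UMIs were summed per library over all cells or a cluster and scaled to CPM, with exact Poisson intervals for CPM, exact binomial (Clopper-Pearson) intervals for shares and exact conditional binomial intervals for log2 ratios. Genes with a mean of at least 10 CPM were kept, and limits of 0.25 between libraries and 0.5 between clusters (in both libraries) served as size rules, not tests. A 0 count was given the level of 3 counts as its upper limit. Depth was 27815785 and 28705830 UMIs, which makes counting intervals narrow for sums and wide for members under 100 CPM in small clusters.

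Seurat 5.3.0 under R 4.3.3 gave the clusters. Log-normalized values of 2000 variable genes entered, chosen after members, complex I and mitochondrial genes had been removed, with 20 principal components, 20 neighbours and Louvain clustering at resolution 0.15, where 6 clusters first appeared. Sums used numpy 2.4.6, scipy 1.17.1 and pandas 2.3.3, and figures matplotlib 3.10.9. All 54 members were found in the GENCODE annotation of GRCm38, which gave positions and coding lengths, and 12 of the 48 nuclear ones have an annotated near copy (at least 95% identity over 90 bases of the last 400), 2 of them with a copy in the count table (Atp5l and Atp5b). Promoter windows came from RefSeq on GRCm38.p6. The calculation of ratios and intervals was checked on simulated Poisson counts, the model that the intervals assume. That check does not cover variation between cells, mice or libraries.

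Members were taken by gene symbol alone, while the gene lists and the genes named with values were chosen with earlier results of these data known. Values were given for the most abundant member of each complex, the 5 highest and 5 lowest kept members by Obese over Lean and by cluster 1 over cluster 2, the mitochondrial members, the Sdh genes, Cyc1, Cycs, Uqcrfs1, the paralog families and members not kept. Further genes (Uqcrb, Uqcrc2, Cox17, Tfam and Tfb2m among them) were named after their values were seen. Alternatives were scaling by edgeR 4.0.16 (TMM), leaving mitochondrial and ribosomal protein genes out of the total, averaging CPM over cells, cells thinned to 2000 UMIs, stricter, wider and lineage filters on cells, each cluster alone, other limits on genes, resolution 0.8 and members kept among the variable genes. Leaving out clusters 4 and 5 and weighting clusters 0 to 3 equally were added after the data were seen.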

Additional observations from a re-analysis of the deposited data

Results flagged for a closer look

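Between clusters 0 to 3, 5 of 48 kept members had ratios of Obese over Lean with intervals on opposite sides of 0. The intervals cover counting error only, and the difference was not tested. The share of all genes with such ratios was not counted, so the 5 cannot be called particular to these members. Atp5g1, a c-ring gene, had a log2 ratio of 0.15 in cluster 3 (344 and 381 CPM) and −0.19 in cluster 2 (299 and 263 CPM). Cox6a1 had 0.17 in cluster 3 and −0.18 in cluster 2, and Cox7a2 had 0.092 in cluster 3 and −0.18 in cluster 2. Atp5h, a peripheral stalk gene, had 0.054 in cluster 1 and −0.14 in cluster 0. mt-Co1 had 0.082 in cluster 3 and −0.20 in cluster 0. In 4 of the 5 the higher ratio was in the effector-like cluster 3.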

How the results depend on the processing

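No paired analysis was possible because each group has 1 library and the labels give no replicate numbers, and no library could be left out. A value is given here where it lay outside the counting interval of the reported sum, ratio or share, where a count differed by over 1.5 times, or where a single gene reversed, and the cause was not tested. Of the sums, counts and shares 71 values stayed within these bounds, 68 left them and 3 reversed. For single genes 68 values stayed within their interval, 69 left it in the same direction and 5 reversed. Cluster 5, with 10 and 21 cells, has the least depth.

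For Obese over Lean the summed nuclear log2 ratio (−0.036) was −0.081 with TMM factors, −0.029 without mitochondrial and ribosomal protein genes in the total, −0.022 as a mean over cells, −0.055 with cells thinned to 2000 UMIs, −0.069 in cells under 30000 UMIs and −0.0014 over all deposited cells. It was −0.080, −0.024, −0.12, −0.029, 0.46 and −0.20 in clusters 0 to 5 taken alone, so that it reversed in cluster 4, and −0.055 with clusters 0 to 3 weighted equally, chosen after the data were seen. The mitochondrial ratio (0.39) was 0.34 with TMM factors, 0.40 with that reduced total, 0.30 as a mean over cells, 0.33 with thinned cells, 0.39 over all deposited cells and 0.40 without clusters 4 and 5, also chosen later. It was 0.27, 0.44, 0.31, 0.55, 0.25 and 0.047 in clusters 0 to 5 alone. Past 0.25, 36 members instead of 5 were higher in cluster 4 alone. Past −0.25, in place of 1 member, there were 3 with thinned cells, 2 under 30000 UMIs, 2 with 1 UMI in each library as the only limit, and 3, 8, 0, 3 and 15 in clusters 0, 2, 3, 4 and 5 alone. Single genes reversed in cluster 4, Cox7a2l to −0.039, Cycs to 0.85 and Atp5md to 0.86, in cluster 5, Atp5md to 0.073, and in cluster 3, mt-Co1 to 0.082.

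Between states, values are for Lean and then Obese. With the reduced total the nuclear ratio over cluster 2 was −0.13 and −0.081 in cluster 0, reversed from 0.23 and 0.27, 0.38 and 0.48 in cluster 1 and 0.25 and 0.36 in cluster 3. The mitochondrial ratio was then −0.64 and −0.68 in cluster 0, −0.94 and −0.80 in cluster 1 and −0.88 and −0.62 in cluster 3. Members past 0.5 upwards were then 0 in place of 1 in cluster 0, 18 in place of 34 in cluster 1 and 6 in place of 26 in cluster 3, and past −0.5 they were 7 in place of 1, 7 in place of 3 and 5 in place of 0. The shares of all genes were then 8.51%, 23.5% and 16.6% upwards, from 23.9%, 42.0% and 33.3%, and 7.37%, 21.3% and 16.4% downwards, from 2.64%, 10.9% and 7.01%. With thinned cells the nuclear ratio was 0.81 and 0.90 in cluster 1 and 0.29 in cluster 0 of the Obese library, the mitochondrial ratio was −0.55 in cluster 1 of the Lean and −0.24 in cluster 3 of the Obese library, and 0 members stood past 0.5 in cluster 0, against 2 with stricter cells. At resolution 0.8, where the proliferating-like cluster held 215 and 233 cells and the naive- or memory-like one 119 and 190, the nuclear ratio was 1.02 and 1.03 and the mitochondrial ratio −0.58 and −0.42.

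Atp5g2 gave 50.6% and 49.5% of its family with thinned cells and 48.7% and 46.2% over all deposited cells, from 49.3% and 47.4%. Cox7a2l gave 30.6% and 36.2%, then 21.7% and 25.7%, from 23.4% and 28.6%.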

Other observations

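The cells left out for mitochondrial UMIs at or over 7.5%, 158 in the Lean and 213 in the Obese library, held 5337 and 5489 CPM of nuclear members and 104293 and 126101 CPM of mitochondrial members. Their nuclear level was below that of each cluster of kept cells.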
